A study of Mus musculus with 39 samples.

Results

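miR-335 is a microRNA (miRNA) made from a hairpin within Mest, an imprinted gene that is read from the paternal copy. Both strands of that hairpin, mmu-miR-335-5p and mmu-miR-335-3p, were on the array, and they are 2 of its 650 miRNAs. They were chosen on their signals in these same arrays, over all 13 groups. Their levels and their differences from control are therefore given as a description, with no test. Comparisons between treated groups and between the strands were tested, but they use the same signals that chose the strands. Their adjusted p-values do not allow for that choice and stand beside each difference as a measure of the spread between arrays, not as independent support.

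RNA came from TCL-1 cells, a mouse embryonic stem cell (ESC) line from 129/SvJae mice, grown on mitomycin C-treated mouse fibroblast feeders with LIF. For differentiation the feeders were removed on gelatin, and cells on collagen-coated plates were given Activin A (100 ng/ml), Wnt3a (50 ng/ml) or the pair together. Controls were kept in that medium (RPMI with B27 and sodium butyrate, shared by every differentiated group) with neither growth factor, and cells were taken at days 1, 3 and 5. With undifferentiated ESCs this made 13 groups of 3 arrays, 39 in all, and nothing in the labels says that the 3 arrays of a group were separate cultures, so p-values measure only the spread between these samples, which may be technical.

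A miRNA hairpin is trimmed to a duplex of its strands. Either strand can be loaded into an Argonaute protein, which keeps it stable, while the partner is usually degraded, so the strands of one precursor need not accumulate alike. A loaded miRNA finds messenger RNAs mainly by pairing through its seed near the 5′ end. Activin A signals through Smad2 and Smad3 and Wnt3a through beta-catenin, and both pathways act in the primitive streak, where definitive endoderm forms.

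The mature sequences of both strands follow, from RefSeq (GRCm38.p6), in which both names matched; they are shown because the strands differed in their response, and capitals mark the seed, bases 2 to 8.
mmu-miR-335-5p: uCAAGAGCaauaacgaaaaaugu
mmu-miR-335-3p: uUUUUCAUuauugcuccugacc
The 5p strand has 23 bases, 7 of them G or C, and lies at chr6:30741314-30741336. The 3p strand has 22 bases, 8 of them G or C, and lies at chr6:30741354-30741375. Their seeds differ from each other, and 0 of the other mature miRNAs among the 1738 in the table shares either seed. The Mir335 hairpin of 98 bases (chr6:30741299-30741396, plus strand) lies within 1 gene, Mest, 7793 bases from its start.

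The value measured was the total signal of each miRNA, a scanner intensity with the background subtracted, summed over the probes that the scanner software detected. The 5p strand had 2 probes and the 3p strand 4 probes. Levels below are log2 of the quantile normalized signal, with signals under 2 raised to 2, so that 1.00 is the lowest level possible. Only changes between groups were compared, because signals of different probes cannot be set against each other. The arrays detected 183 to 375 miRNAs over a median local background of 35 to 42, and the number of arrays limits the precision.

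One array stood apart from its group, Wnt3a day 5 replicate 1. Each array was set against the mean of the other arrays of its group, over the 143 miRNAs detected on every array. By this measure replicate 1 lay at a root mean square log2 distance of 1.14. Replicates 2 and 3, whose reference takes in replicate 1, lay at 0.765 and 0.621. The 36 arrays of the other groups lay at 0.0769 to 0.348. After scaling of the arrays, the 5p probes on that replicate lay at 34.3% and 37.0% of the mean of replicates 2 and 3, and the 3p probes at 18.7% to 29.5%. Tests of the strands that compare its group, and the levels of its group, are given with and without it. Differences from control are given with it, beside the level without it. Probe differences, marker lists, correlations and most shares of miRNAs called are given only with it.

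The names of 2 treatments differ between deposited files. The authors' series matrix has the Activin A group and the group given both factors in each other's place relative to the scanner files. By the scanner names, mmu-miR-150 at day 1 was at 5.83 (SD 0.06) in control, 5.86 (SD 0.15) with Activin A, 7.33 (SD 0.04) with Wnt3a and 7.08 (SD 0.08) with both factors. The group named as given both thus lay near the Wnt3a group, and the Activin A group, of which 1 array shared the slide of the Wnt3a arrays, lay near control. The scanner names are used for miR-335, and no array was assigned by its values; if they are the exchanged ones, what is said of the miR-335 strands with Activin A alone applies to both factors and the reverse.

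In ESCs miR-335-5p was undetected on 2 arrays and read 10.704 on the third. At day 1 it was low in every group, with total signals of 16.5, 25.3 and 24.4 in control, 22.5, 37.5 and 28.2 with Wnt3a, 28.9, 15.9 and 28.3 with Activin A, and 28.7, 20.5 and 26.6 with Activin A plus Wnt3a. These 4 groups overlapped. At day 3 the arrays split by Activin A: miR-335-5p read 428, 443 and 405 in control and 528, 524 and 613 with Wnt3a, but 78.1, 55.2 and 94.6 with Activin A and 98.6, 79.9 and 108 with both factors. At day 5 miR-335-5p read 747, 749 and 794 in control, 362, 324 and 320.0 with Activin A, and 326, 277 and 258 with both factors. The Wnt3a arrays of day 5 read 272, 1466 and 1070.1, and the lowest of these was the array that stood apart. In these raw signals that array lay within the range of both factors, and the split by Activin A remained among the other arrays.

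miR-335-3p was undetected on all 3 ESC arrays. At day 1 it was undetected on 2 control arrays and read 6.59 on the other, and it read 5.84, 3.48 and 65.4 with Activin A, 56.8, 67.8 and 54.7 with Wnt3a, and 50.4, 46.6 and 56.8 with both factors. By day 3 it was well measured on every array, at 252, 242 and 250.2 in control, 277, 269 and 275 with Wnt3a, 80.6, 78.1 and 90.2 with Activin A, and 132, 130.0 and 154 with both factors. The day 3 values thus fell into 3 levels, with control and Wnt3a highest, Activin A lowest and both factors between them. At day 5 the 3p strand read 386, 356 and 379 in control, 394, 358 and 329.5 with Activin A, 273, 269 and 243 with both factors, and 74.9, 612 and 526 with Wnt3a. The wide gap between control and Activin A seen at day 3 was thus no longer present in the raw signals.

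**Figure D1:**
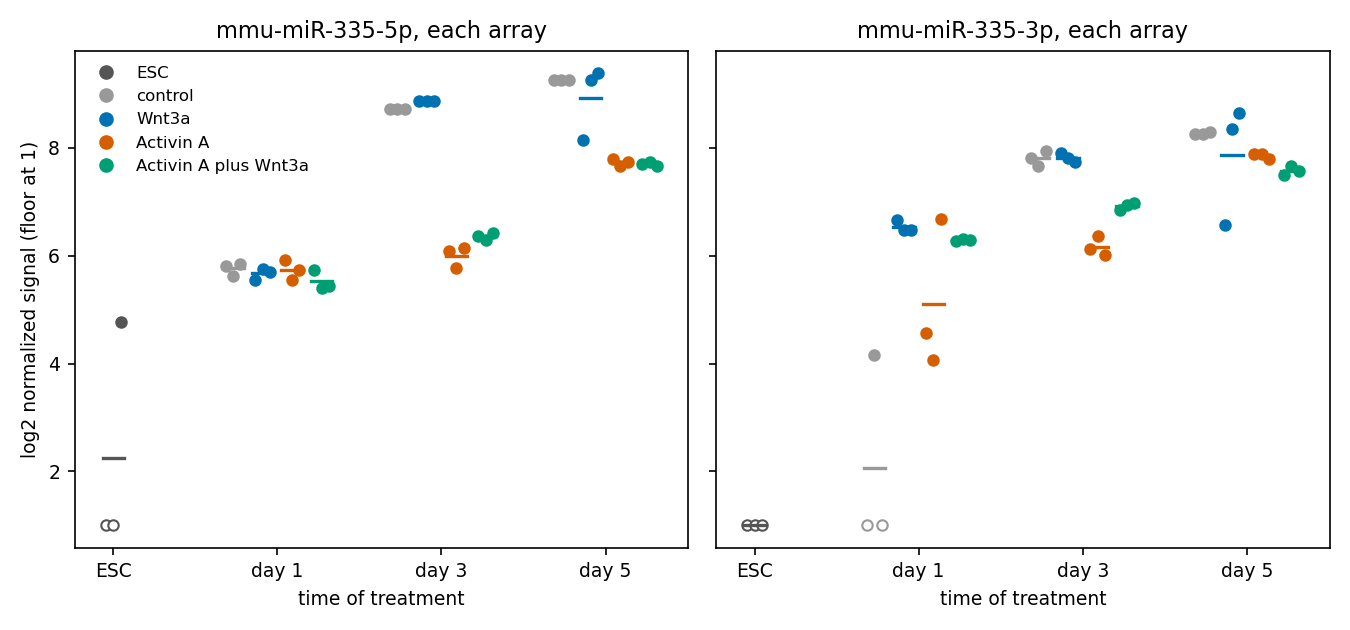
Log2 normalized signal of each strand on every array (points; open where undetected) with the mean of each group (bars), by day and treatment. At day 3 the Activin A groups sit at 6.00 and 6.36 for the 5p strand, below control at 8.72 and Wnt3a at 8.87.

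The order of miR-335-5p over the 13 groups, from low to high, opened with ESC (mean log2 level 2.26, SD 2.18, n = 3), which overlapped no other group. The day 1 groups followed at 5.53 (SD 0.19) with both factors, 5.67 (SD 0.11) with Wnt3a, 5.74 (SD 0.18) with Activin A and 5.76 (SD 0.12) in control, and each overlapped the next. Activin A at day 3 (6.00, SD 0.19) overlapped control day 1, so that 3 days of Activin A left the 5p strand near its day 1 level. Activin A plus Wnt3a at day 3 (6.36, SD 0.07) stood alone, and the day 5 means with both factors (7.70, SD 0.03) and with Activin A (7.73, SD 0.06) overlapped. Control day 3 (8.72, SD 0.00) overlapped neither neighbour but lay within the range of Wnt3a day 5 (8.15 to 9.38), and Wnt3a day 3 (8.87, SD 0.00), Wnt3a day 5 (8.93, SD 0.68) and control day 5 (9.27, SD 0.00) overlapped in turn. An SD of 0.00 means that the strand held one rank on all 3 arrays, since quantile normalization gives equal ranks equal values. Without the array that stood apart, Wnt3a day 5 was at 9.33 (SD 0.08).

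For miR-335-3p the order opened with ESC (1.00), control day 1 (2.06, SD 1.83), Activin A day 1 (5.11, SD 1.38), Activin A day 3 (6.17, SD 0.18) and both factors at day 1 (6.30, SD 0.02), each overlapping the next. Wnt3a day 1 (6.54, SD 0.11) and both factors at day 3 (6.92, SD 0.07) overlapped neither neighbour, though both overlapped the wide range of Wnt3a day 5 and the former also that of Activin A day 1. The means of ESC and control day 1 are set by the floor, since 3 and 2 of their arrays did not detect the strand. The 6 highest groups formed a run of overlapping neighbours, with both factors at day 5 (7.58, SD 0.09), control day 3 (7.81, SD 0.14), Wnt3a day 3 (7.82, SD 0.09), Activin A day 5 (7.85, SD 0.05), Wnt3a day 5 (7.86, SD 1.13) and control day 5 (8.27, SD 0.02). Activin A at day 5 therefore ranked among the highest groups for the 3p strand and among the middle groups for the 5p strand. Without the array that stood apart, Wnt3a day 5 was at 8.51 (SD 0.21).

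Compared with control at day 3, miR-335-5p was lower by a log2 difference of -2.72 (6.61-fold) with Activin A and -2.36 (5.14-fold) with both factors, and higher by 0.15 (1.11-fold) with Wnt3a, with no overlap between the arrays. At day 5 the differences were -1.54 (2.90-fold) and -1.57 (2.96-fold), again with no overlap, and -0.34 with Wnt3a, which overlapped control. Without the array that stood apart, Wnt3a at day 5 lay at 9.33, above control at 9.27, so the sign of -0.34 rests on that array. At day 1 the values -0.09 (Wnt3a), -0.03 (Activin A) and -0.24 (both factors) all overlapped control. The reduced 5p level thus went with the presence of Activin A at days 3 and 5. Control shared no slide with the group given both factors at days 3 and 5, nor with Wnt3a at day 5, and shared a slide with Activin A alone on both days. In bulk RNA, fewer cells of a type and less RNA per cell cannot be told apart.

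In the groups given Activin A, miR-335-3p differed less from control than the 5p strand at days 3 and 5. At day 3 it was lower with Activin A by -1.65 (3.13-fold) and with both factors by -0.89 (1.85-fold), neither overlapping control, and the Wnt3a difference was 0.01. At day 5 the differences were -0.42 (1.34-fold) with Activin A and -0.69 (1.61-fold) with both factors, with no overlap, and -0.41 with Wnt3a, which overlapped. The sign of -0.41 also rests on the array that stood apart, without which Wnt3a lay at 8.51, above control at 8.27. For comparison, of 326 miRNAs tested at day 3, 3.07% were called different from control in the Wnt3a group, 19.02% in the Activin A group and 20.2% in the group given both, a call being a limma adjusted p below 0.05 and more than a 2-fold difference. Of 368 tested at day 5, 3.804%, 25.0% and 30.4% were called, and of 240 tested at day 1, 4.17%, 0% and 5.42%. The day 1 count for Activin A was 0 by limma, with 40 at an unadjusted p below 0.05. The members were chosen on these contrasts, so nothing is read from the shares.

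Both strands were higher at each later day in control cells. The second probe of miR-335-5p had a mean scaled signal of 17.3 in ESC, where it had spots well above background on 1 of 3 arrays, and of 44.4 in control at day 1. The 5p strand was 2.96 (7.78-fold) higher in control at day 3 than at day 1, and 0.55 (1.46-fold) higher at day 5 than at day 3. For miR-335-3p, which 1 of 3 control arrays detected at day 1, the floor sets the size of the step to day 3, which is not given. It was 0.46 (1.37-fold) higher at day 5 than at day 3. Since no ESC array detected the 3p strand, its level there has only an upper bound, the mean over the ESC arrays of the lowest level any detected miRNA had. Against this bound the 3p strand was at least 8.90-fold higher in control at day 3 and at least 12.2-fold higher at day 5, and at least 2.84-fold higher with Activin A at day 3 and at least 9.14-fold at day 5. Of 373 miRNAs, 16.6% were called between ESC and control day 1, 49.3% between control days 1 and 3, and 18.5% between control days 3 and 5.

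The day 1 readings of miR-335-3p followed the slide that carried the array. On slide 1, which held control and Activin A replicates 1 and 2, its sum over all probes was 10.5 to 16.3 on 5 arrays. On slide 2, which held Activin A replicate 3 and the groups given Wnt3a or both factors, it was 46.6 to 67.8 on 7 arrays. Activin A was on both slides and read low on the first and high on the second. Within slide 1 its sums of 15.2 and 10.5 overlapped those of control, 14.7, 16.3 and 12.02. Within slide 2 its sum of 65.4 lay in the range of the Wnt3a group, 54.7 to 67.8. The Wnt3a group and the group given both shared no slide with control at day 1, so for them treatment and slide cannot be told apart by direct comparison of the 3p strand. The sizes of these differences are not given, because 2 of 3 control arrays lay at the floor. The same slides did not part the 5p strand, whose sums were 14.9 to 28.6 on slide 1 and 19.3 to 41.1 on slide 2. In the plot of day 1 signals by slide, the 3p points lie in 2 bands and the 5p points in one.

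**Figure D2:**
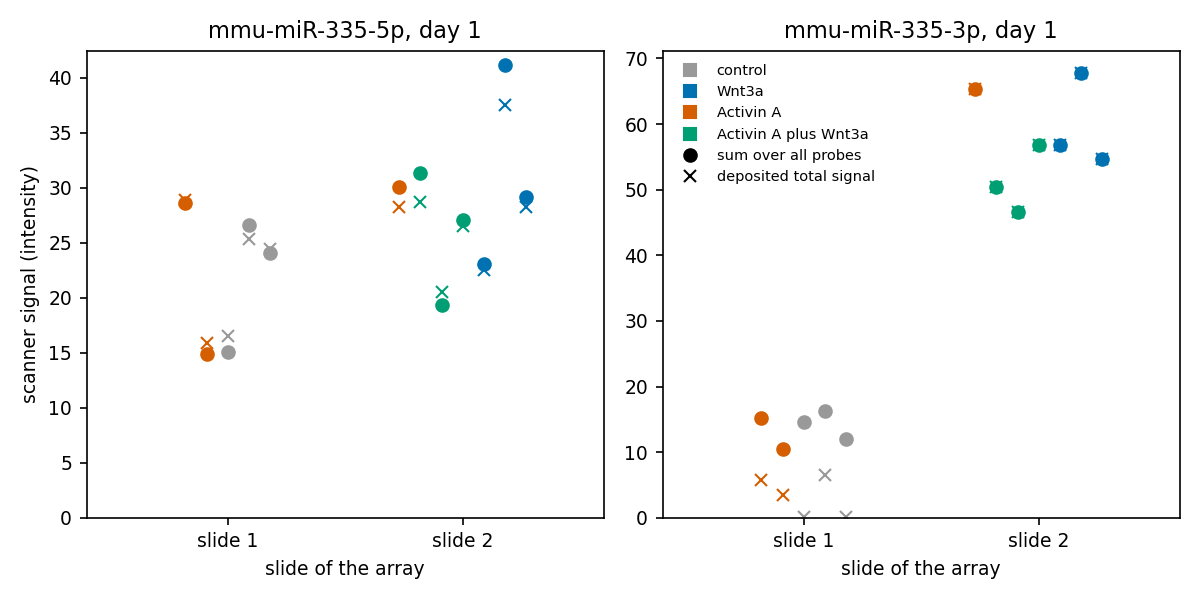
Day 1 scanner signal of each strand by slide, as the sum over all probes (circles) and as the deposited total over detected probes (crosses). The 3p sums are 10.5 to 16.3 on slide 1 and 46.6 to 67.8 on slide 2, with Activin A arrays on both.

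The first tested question was what Activin A did in the presence of Wnt3a. At day 3 miR-335-5p had read 528, 524 and 613 with Wnt3a alone and 98.6, 79.9 and 108 with both factors, so every array with Activin A lay below every array without it. The 5p strand fell by 2.51 on the log2 scale, to a level 5.70-fold lower (SE 0.08, 95% confidence interval -2.70 to -2.32, limma adjusted p = 9.28e-09, lower on 3 of 3 arrays). Of 326 miRNAs 18.1% were called in either direction. miR-335-3p was also lower on 3 of 3 arrays, by a smaller difference of -0.90 (1.86-fold, SE 0.10, interval -1.13 to -0.67, limma adjusted p = 5.36e-05), which stayed under the 2-fold limit for a call. The arrays with both factors at day 3 shared no slide and no scan session with the other day 3 groups, so the treatment and the slide or session cannot be told apart in these values.

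At day 5 this comparison could be made within 1 slide. miR-335-5p fell by 1.23 with both factors relative to Wnt3a alone, a 2.35-fold difference (SE 0.27, interval -1.84 to -0.62, limma adjusted p = 0.00537), and was lower on 3 of 3 arrays. Without the Wnt3a array that stood apart the difference was -1.62 (adjusted p = 1.84e-08). In the fit of all 39 arrays it was -1.23 with an adjusted p of 0.0507. miR-335-3p differed by -0.28 (SE 0.44, interval -1.28 to 0.71, limma adjusted p = 0.673), with the low Wnt3a array below all 3 arrays of the other group. Without that array the 3p difference was -0.93 (limma adjusted p = 3.35e-05), still under 2-fold. Of 368 miRNAs tested, 25.3% were called.

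**Figure D3:**
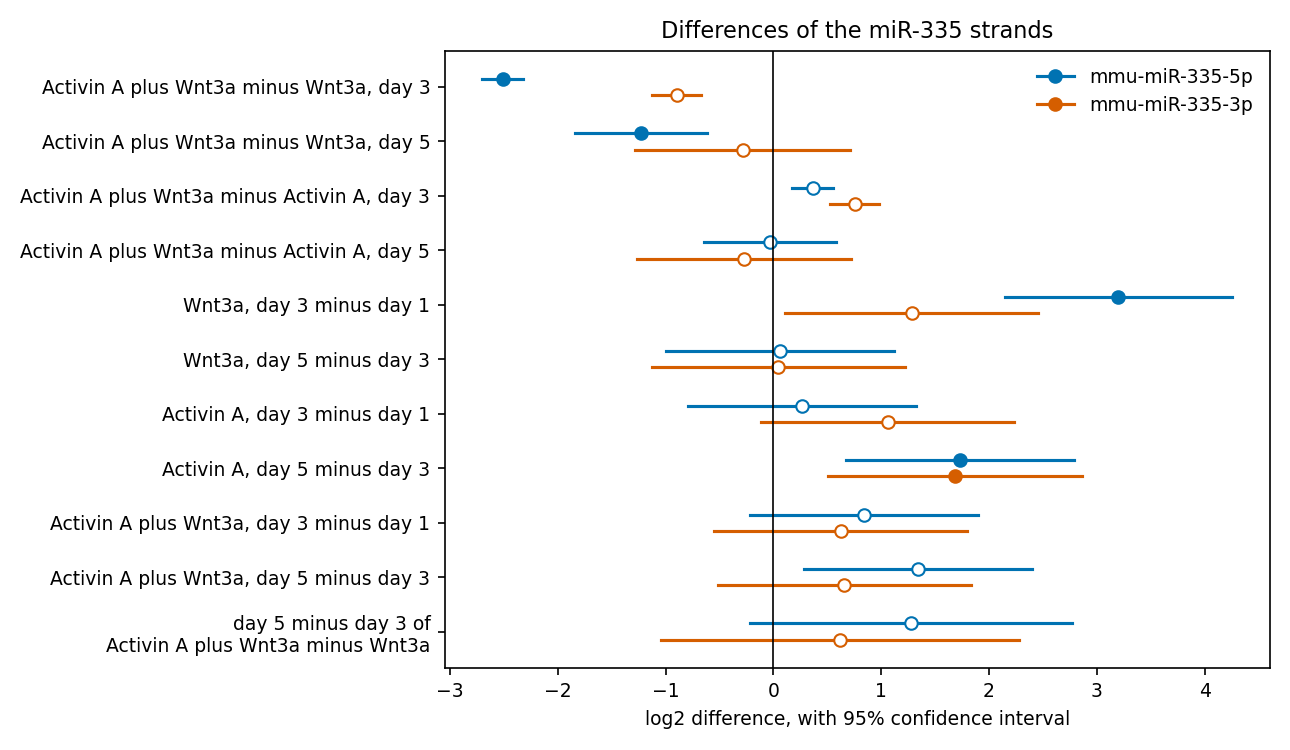
Log2 difference of each strand in every tested comparison, with its 95% confidence interval; filled points passed both the adjusted p and the 2-fold limit. The 5p strand at -2.51 is the farthest below 0, and only the step of Activin A from day 3 to day 5 has both points filled.

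The size of the Activin A difference was set against time directly, as the difference at day 5 minus the difference at day 3. For miR-335-5p this change was 1.28 (SE 0.73, interval -0.21 to 2.77, limma adjusted p = 0.211), which did not pass over 39 arrays. The SE of that fit takes in the spread of all 13 groups. Among them is ESC (SD 2.18 for the 5p strand, with 2 arrays undetected), which is not compared here. Fitted on the arrays of days 3 and 5 alone, the same 1.28 had an adjusted p of 0.00255, and without the array that stood apart it was 0.89 (adjusted p = 0.469). For miR-335-3p it was 0.61 (limma adjusted p = 0.689), and -0.03 without that array. In this comparison 14.7% of 373 miRNAs were called.

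The strands were then compared within each array, as the log2 level of miR-335-5p minus that of miR-335-3p. The absolute size of this value has no meaning across probes, but its change between groups shows whether the strands moved unequally. At day 3 it was 0.96, 1.06 and 1.14 with Wnt3a and -0.48, -0.65 and -0.55 with both factors. At day 5 it was 1.57, 0.91 and 0.73 with Wnt3a and 0.21, 0.06 and 0.10 with both factors. The arrays with Activin A lay below those without it on both days, with no overlap. In Activin A alone it was -0.04, -0.59 and 0.13 at day 3 and -0.08, -0.21 and -0.06 at day 5, and in control 0.91, 1.05 and 0.78 at day 3 and 1.01, 1.01 and 0.98 at day 5.

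Between Wnt3a and both factors the strand difference shifted by -1.61 at day 3 (SE 0.19, interval -1.999 to -1.23, limma adjusted p = 1.26e-06, lower on 3 of 3 arrays). As a description, the 5p strand was lower by more than its partner. Treatment and slide cannot be told apart in this shift. Within Activin A at day 1, with 3p signals near background on slide 1, the strand difference was 1.35 and 1.49 on slide 1 and -0.93 on slide 2. Of the 178 hairpins with both strands on the array, 32 had both detected on all 24 arrays of days 3 and 5 and were tested, and 18.8% of these passed an adjusted p of 0.05. Large shifts were also seen in mmu-miR-99b (1.69) and mmu-miR-125a (1.12). At day 5 the shift was -0.95 (SE 0.19, interval -1.33 to -0.56, limma adjusted p = 0.000623, lower on 3 of 3 arrays), and -0.70 without the array that stood apart (adjusted p = 0.00133). At that day 28.1% of the hairpins passed, and mmu-miR-125a (2.55), mmu-miR-302a (-1.57) and mmu-miR-877 (-1.17) moved most. When ESC and day 1 arrays entered the fit, on some of which a strand was undetected, the shifts of miR-335 were the same and the adjusted p was 0.178 at day 3 and 0.363 at day 5.

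**Figure D4:**
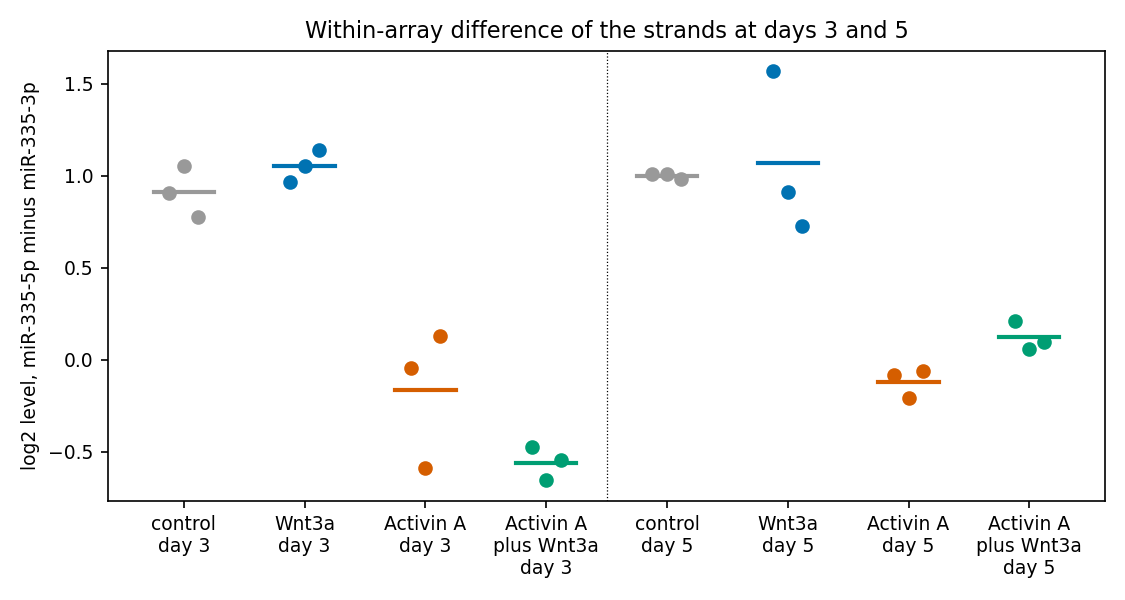
Log2 level of miR-335-5p minus that of miR-335-3p on each array of days 3 and 5 (points) with the group means (bars). Control and Wnt3a arrays lie at 0.73 or above, and arrays with Activin A lie at 0.21 or below.

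The second question was what Wnt3a did in the presence of Activin A. At day 3 both strands were higher with both factors than with Activin A alone on 3 of 3 arrays. miR-335-5p differed by 0.36 (1.29-fold, SE 0.08, interval 0.17 to 0.55, limma adjusted p = 0.0116). miR-335-3p differed by 0.76 (1.69-fold, SE 0.10, interval 0.53 to 0.98, limma adjusted p = 0.000693). Neither reached 2-fold, and slide and treatment cannot be told apart here either. In the series matrix, with the names exchanged, the signs are turned, at -0.39 for the 5p strand and -0.77 for the 3p strand. In this comparison 3.99% of the miRNAs were called. The shift of the strand difference was -0.39 (interval -0.78 to -0.01, limma adjusted p = 0.377; 0.342 with a replicate block, which left 0 hairpins called), and 9.38% of hairpins passed, with the largest shifts in mmu-miR-99b (0.96), mmu-miR-30e (-0.74) and mmu-miR-292 (0.56).

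By day 5 the difference between both factors and Activin A alone was close to 0 for the 5p strand and negative for the 3p strand. miR-335-5p differed by -0.03 (interval -0.64 to 0.58, limma adjusted p = 1), and its arrays overlapped. miR-335-3p differed by -0.27 (interval -1.27 to 0.72, limma adjusted p = 1), although it was lower on 3 of 3 arrays. Without the Wnt3a array that stood apart, whose spread enters this fit, the 3p difference was the same with an adjusted p of 0.0439. At this day only Activin A replicate 3 shared slide 5 with the arrays given both factors, and replicates 1 and 2 were on slide 4. Of the 368 miRNAs 2.72% were called. For the strand difference the shift was 0.24 (limma adjusted p = 0.583), and 0% of hairpins passed: limma called 0 of 32, with 5 at an unadjusted p below 0.05, against 1 with quantile normalization of log2 signals and 4 of a larger set with no filter.

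The third question was how each treatment moved the strands over time. No treatment had arrays of different days on 1 slide, so in every step the day and the slide cannot be told apart within a treatment. Slides 1 to 3 were scanned in session 1 and slides 4 and 5 in session 2. For the levels of the strands, the SEs and p-values of these steps take in the spread of all 13 groups, also of those not compared. That spread was widest in ESC for the 5p strand (SD 2.18). For the 3p strand it was widest in control day 1 (SD 1.83), Activin A day 1 (SD 1.38) and Wnt3a day 5 (SD 1.13). With Wnt3a, miR-335-5p rose by 3.20 from day 1 to day 3, or 9.20-fold (SE 0.51, interval 2.14 to 4.26, limma adjusted p = 3.86e-06, higher on 3 of 3 arrays). miR-335-3p differed by 1.28 over that step (2.43-fold, SE 0.57, interval 0.11 to 2.46, limma adjusted p = 0.0559, higher on 3 of 3 arrays), and the adjusted p was 0.0355 without the array that stood apart. Of 373 miRNAs 43.97% were called over that step, and the median difference of all miRNAs was 0.20. From day 3 to day 5 the Wnt3a values were 0.06 for the 5p strand and 0.04 for the 3p strand (limma adjusted p = 1 for each), with 1 of 3 arrays lower, and 21.98% of the miRNAs were called. Without the array that stood apart they were 0.45 and 0.69 (limma adjusted p = 0.647 and 0.424), and 67 of 370 miRNAs were called.

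With Activin A alone, miR-335-5p differed from day 1 to day 3 by 0.26 (SE 0.51, interval -0.79 to 1.32, limma adjusted p = 0.757). miR-335-3p differed by 1.06 over that step (SE 0.57, limma adjusted p = 0.117). This 3p value is no measure of the size of the step. On day 1 replicates 1 and 2, of slide 1, 0 spots of any 3p probe were well above background, and the strand lay at 4.57 and 4.07, where the lowest level of any detected miRNA was 4.57 and 4.02. On replicate 3, of slide 2, it lay at 6.68. In this step 42.4% of the miRNAs were called.

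From day 3 to day 5 with Activin A both strands rose by a similar amount, and the day 3 arrays were on slide 3 of session 1 and the day 5 arrays on slides 4 and 5 of session 2. miR-335-5p rose by 1.73, or 3.32-fold (SE 0.51, interval 0.68 to 2.79, limma adjusted p = 0.0196, higher on 3 of 3 arrays). miR-335-3p rose by 1.68, or 3.22-fold (SE 0.57, interval 0.51 to 2.86, limma adjusted p = 0.044, higher on 3 of 3 arrays). The strand difference shifted by 0.05 (interval -0.34 to 0.44, limma adjusted p = 0.882). Only 6.702% of the miRNAs were called over this step, and 3.12% of hairpins passed for the strand difference. The call of the 3p strand ended on leaving out any 1 of the 6 arrays, with values from 1.61 to 1.78. That of the 5p strand ended without Activin A day 3 replicate 2 (1.62, adjusted p = 0.0698) and without day 5 replicate 1 (1.70, adjusted p = 0.0561) or replicate 3 (1.73, adjusted p = 0.0553). The SEs behind these calls take in groups outside the step. The compared groups of days 3 and 5 had SDs of 0.19 and 0.06 for the 5p strand and 0.18 and 0.05 for the 3p strand.

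With both factors, miR-335-5p differed from day 1 to day 3 by 0.84 (limma adjusted p = 0.175) and miR-335-3p by 0.62 (adjusted p = 0.388), each higher on 3 of 3 arrays, and 41.02% of the miRNAs were called. From day 3 to day 5, miR-335-5p differed by 1.34 (2.53-fold, interval 0.28 to 2.40, limma adjusted p = 0.0895), and on the arrays of those days alone the same value had an adjusted p of 0.000162. miR-335-3p differed by 0.66 (limma adjusted p = 0.661), and 4.83% of the miRNAs were called. The strand difference rose by 0.68 (SE 0.19, interval 0.30 to 1.07, limma adjusted p = 0.0245, higher on 3 of 3 arrays). In this step 25.0% of hairpins passed, among them mmu-miR-20b (1.08). The shifts of mmu-miR-135a (1.40, adjusted p = 0.116) and mmu-miR-291a (-1.01, adjusted p = 0.0655) were among the 3 largest and did not pass. The miR-335 shift was 0.60 (adjusted p = 0.689) with the slide as a fixed term, and its call ended without day 3 replicate 2 (0.63) and without day 5 replicate 1 (0.64) or replicate 2 (0.71). With Wnt3a alone the shift from day 3 to day 5 was 0.02 (limma adjusted p = 0.934), with 28.1% of hairpins called, and -0.23 without the array that stood apart.

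The number of hairpins called beside miR-335 depended strongly on single arrays. Without Wnt3a day 5 replicate 1, whose spread enters every strand fit, limma called 14 of 37 hairpins (6 of 32 with it) for both factors minus Wnt3a at day 3 and 14 (9 with it) at day 5. For both factors minus Activin A it called 13 (3 with it) at day 3 and 3 (0 with it) at day 5. Between days 3 and 5 it called 16 (9 with it) for Wnt3a, 14 (1 with it) for Activin A and 15 (8 with it) for both factors. Leaving out 1 array of the compared groups gave 4 to 5 of 32 and, at day 5, 4 to 20 for both factors minus Wnt3a, and 0 to 1 on both days for both factors minus Activin A. For the steps it gave 5 to 18 with Wnt3a, 0 to 1 with Activin A and 0 to 4 with both factors, so the shares of hairpins are no firm background for miR-335.

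The total signals are sums of single probes, so the values of the probes describe the same signals and are no separate support. For Activin A plus Wnt3a against Wnt3a at day 3, the 2 probes of miR-335-5p differed by -2.07 and -2.64, and the 4 probes of miR-335-3p by -0.85 to -1.07. At day 5 the 5p probes differed by -1.60 and -1.43 and the 3p probes by -0.12 to -0.46. These day 5 values take in the Wnt3a array that stood apart. Its 3p probes lay at 18.7% to 29.5% of the mean of replicates 2 and 3, and no probe difference without it is given. In these values every 5p probe moved further than every 3p probe. The total of the 5p strand held both probes on 23 arrays, 1 probe on 14 and none on 2, so that its low values, such as those of day 1, rested on a single probe. From day 3 to day 5 with Activin A, the second 5p probe differed by 1.68 and the 3p probes by 1.79 to 2.13. No size is given for the first 5p probe against Activin A at day 3, where it had spots well above background on 1 of 3 arrays.

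**Figure D5:**
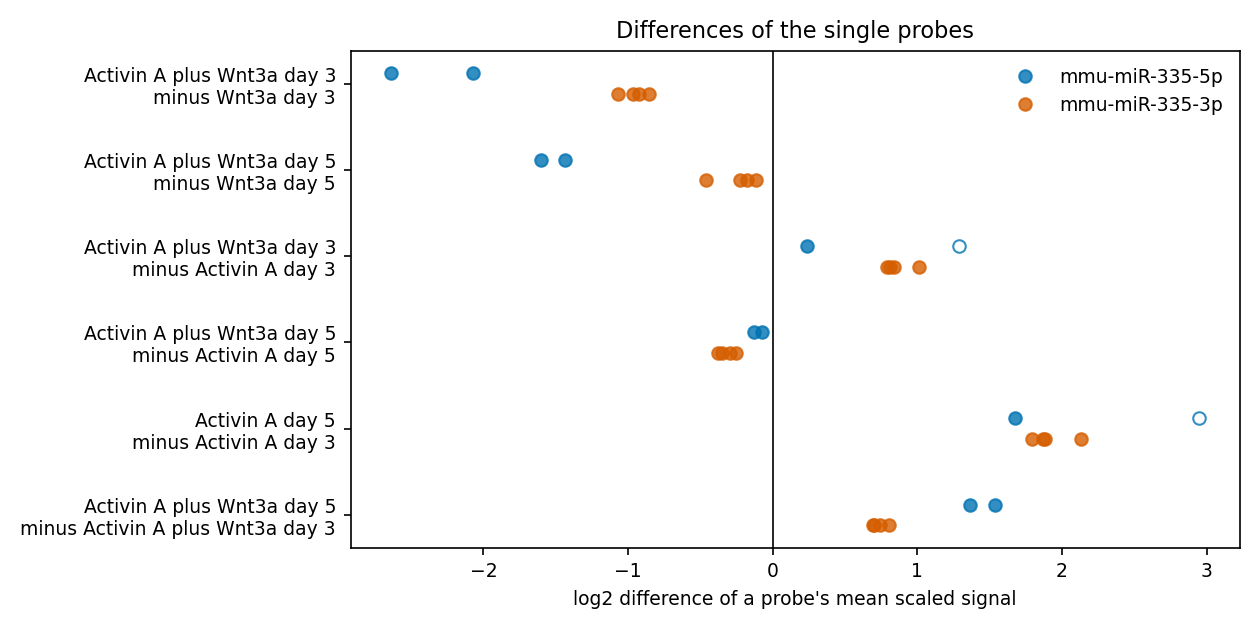
Difference of the mean log2 scaled signal for each single probe of both strands (points) in 6 comparisons, open where a group had an array with no spot of the probe well above background. Against Wnt3a at day 3 the 5p probes lie at -2.07 and -2.64 and the 3p probes between -0.85 and -1.07.

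Over the means of the 13 groups the strands correlated with each other at r = 0.85, and over the 8 groups of days 3 and 5 at r = 0.92. Across 354 other miRNAs and 13 groups, the patterns most like that of miR-335-5p were those of mmu-miR-322 (r = 0.95), mmu-miR-30b (0.91), mmu-miR-331-3p (0.87), mmu-miR-20b (0.86) and mmu-miR-503 (0.86). Those most like miR-335-3p were mmu-miR-298 (0.97), mmu-miR-423-5p (0.94), mmu-miR-149 (0.94), mmu-miR-487b (0.93) and mmu-miR-30d (0.91). These 13 groups take in the day 1 arrays, on which the 3p strand split by slide. At day 1 mmu-miR-298, mmu-miR-423-5p, mmu-miR-149 and mmu-miR-30d were also higher with Wnt3a and with both factors than in control, with Activin A between. Treatment and slide cannot be told apart there. mmu-miR-487b was highest with Activin A at day 1. mmu-miR-298 lay at the floor of 1.00 in ESC and in control day 1. Over days 3 and 5 (8 groups, 350 miRNAs) the nearest to the 5p strand were mmu-miR-503 (0.98), mmu-miR-181b (0.98), mmu-miR-322 (0.96), mmu-miR-1224 (0.92) and mmu-miR-125b-5p (0.92). The nearest to the 3p strand were then mmu-miR-1224 (0.93), mmu-miR-181b (0.93), mmu-miR-202-3p (0.92), mmu-miR-135a (0.88) and mmu-miR-503 (0.87), so that the strands had mmu-miR-503, mmu-miR-181b and mmu-miR-1224 in common. The means of mmu-miR-202-3p over these 8 groups spanned only 6.50 to 6.63, and over 13 groups it was the least like the 3p strand of all 354 (r = -0.91). mmu-miR-503 and mmu-miR-181b were each detected on all arrays in 6 of the 8 groups. At day 3 mmu-miR-503 lay at the floor of 1.00 with Activin A and with both factors, and mmu-miR-181b lay at 1.73 and 1.92. Their correlations therefore rest in part on floor values. These are descriptions of group means, which share arrays and normalization.

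Markers of cell types moved in the same comparison as miR-335-5p, and their part in the result was not tested. Of the neural list, 4 of 6 miRNAs tested fell with both factors relative to Wnt3a at day 3 and 0 rose (median difference -1.86, against -0.01 over all 326, of which 27 fell and 32 rose). Its summed scaled signal was 228, 237 and 259.6 with Wnt3a and 67.6, 62.1 and 74.5 with both factors. At day 5, 5 of 6 fell (median -3.54, against -0.04 over all 368, of which 42 fell and 51 rose), with sums of 746, 1921 and 1121 against 57.6, 62.6 and 65.4. mmu-miR-124 and mmu-miR-128 had the highest mean levels of the list, and mmu-miR-124 fell by 2.05 at day 3 and by 4.75 at day 5. mmu-miR-128 moved little, from 4.84 with Wnt3a to 4.40 with both factors at day 3, and from 4.15 to 4.19 at day 5. mmu-miR-219 gave the highest signal of the list with Wnt3a at days 3 and 5, which is no measure of its abundance beside other miRNAs. Activin A alone gave day 3 sums of 104, 97.5 and 107 and day 5 sums of 119, 117 and 104, and control gave 275, 270.2 and 222 and then 1023, 836 and 929.9, so they parted by Activin A as miR-335-5p did.

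In that comparison, in which miR-335-5p fell, no miRNA of the pluripotent and epithelial lists was called lower, and some were called higher, beside 32 of all 326 at day 3 and 51 of all 368 at day 5. Of the undifferentiated ES cell list, led by mmu-miR-294 and mmu-miR-295, 3 of 13 rose at day 3 (median 0.90) and 7 of 13 at day 5 (median 1.34). Its day 3 sums were 20254, 20328 and 20857 with Wnt3a and 28639, 28062 and 27913 with both factors, and by day 5 10469.8, 10055 and 11199.9 against 18475, 19689 and 20542. Of the primed epiblast list, led by mmu-miR-302a and mmu-miR-302d, 7 of 8 rose at day 3 (median 1.46) and 6 of 8 at day 5 (median 2.40). Its sums were 3711, 3806 and 3767 against 10032, 9876 and 10342 at day 3, and 1000.1, 2071 and 1718 against 6438, 6900.2 and 6583 at day 5. Of the epithelial miR-200 list, led by mmu-miR-200b and mmu-miR-429, 5 of 5 rose at day 3 (median 1.40) and 5 of 7 at day 5 (median 2.44), with sums of 422, 426 and 427 against 1025, 1047 and 1037, and then 178, 239.9 and 254 against 1078, 1117 and 1162. None of the members of these lists or of the neural list was undetected on all 39 arrays.

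In the comparison that lowered miR-335-5p the remaining lists gave the following. Beside them, 32 of all 326 miRNAs rose and 27 fell at day 3, and 51 of all 368 rose and 42 fell at day 5. Of the feeder fibroblast and mesenchyme list, led by mmu-miR-21 and mmu-miR-22, 3 of 8 fell at day 3 (median -0.15) and 4 of 11 rose at day 5 (median 0.93), with sums of 1383, 1367 and 1377 against 1415, 1505 and 1486, and then 887, 1689.7 and 1627 against 1791, 1849 and 1939. The sum of 887 is that of the array that stood apart, which these day 5 calls take in. Of the endoderm list, led by mmu-miR-375 and mmu-miR-216b, 0 of 1 was called at day 3 (difference 0.22) and 1 of 2 rose at day 5 (median 1.93), mmu-miR-375 by 3.86, with sums of 15.4, 13.1 and 14.8 against 66.5, 70.3 and 80.6; 5 of its 8 members, mmu-miR-122, mmu-miR-192, mmu-miR-194, mmu-miR-215 and mmu-miR-217, were undetected on all 39 arrays. Of the mesoderm and muscle list, led by mmu-miR-126-3p and mmu-miR-133a, 0 of 1 was called at day 3 and 0 of 3 at day 5 (medians 0.18 and -0.00), and 5 of 9, among them mmu-miR-1 and mmu-miR-206, were undetected throughout. Of the blood list, led by mmu-miR-155 and mmu-miR-150, 1 of 3 fell at day 3 (median -0.44) and 0 of 2 was called at day 5 (median 0.63), and 3 of 7, among them mmu-miR-451, were undetected throughout.

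miRNAs of other imprinted loci were listed because Mest is imprinted. Of these, led by mmu-miR-494 and mmu-miR-127, 2 of 48 rose and 0 fell with both factors relative to Wnt3a at day 3 (median 0.01), and 3 of 50 rose and 1 fell at day 5 (median 0.34). Of all miRNAs, 32 of 326 rose and 27 fell at day 3, and 51 of 368 rose and 42 fell at day 5. Of the 61 listed, 8 were undetected throughout. Their sums at day 3 were 7012, 7227 and 7201 with Wnt3a and 6711, 6595 and 6656 with both factors, a small gap beside that of miR-335-5p. At day 5 they were 22043, 6738 and 7765 against 6122, 6186 and 6473, and the first value is that of the array that stood apart.

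Over the steps in which miR-335 rose, the lists moved as follows, and their part was not tested. With Wnt3a from day 1 to day 3, when miR-335-5p rose, 17 of 50 imprinted, 6 of 8 primed epiblast and 4 of 6 neural miRNAs rose, 9 of 11 feeder and 8 of 13 ES cell miRNAs fell, and 2 of 11 feeder miRNAs rose. In addition, 2 of 3 blood miRNAs fell and 1 of 2 endoderm miRNAs rose, and no epithelial or mesoderm and muscle miRNA was called. Of all 373 miRNAs 110 rose and 54 fell over that step. The feeder sums went from 4697, 4525 and 4589 to 1383, 1367 and 1377, and the imprinted sums from 2812, 2956 and 2816 to 7012, 7227 and 7201. With Activin A from day 3 to day 5, when both strands rose, 0 of 13 ES cell miRNAs rose and 1 fell, 0 of 8 primed epiblast miRNAs rose and 1 fell, and 1 of 6 neural, 1 of 11 feeder and 1 of 2 endoderm miRNAs rose, beside 15 of all 373 that rose and 10 that fell. The endoderm sums went from 7.81, 7.09 and 6.79 to 47.8, 46.3 and 46.7 in that step, with mmu-miR-375 giving the highest signal, and the neural sums from 104, 97.5 and 107 to 119, 117 and 104. In the same step 0 of 50 imprinted miRNAs rose and 2 fell, with sums of 6489, 6212 and 6227 and then 7148, 7223 and 7103. With both factors from day 3 to day 5, when the strand difference rose, 5 of 11 feeder miRNAs rose (median 1.71), 2 of 8 primed epiblast miRNAs fell (median -0.57) and 1 of 2 endoderm miRNAs rose, beside 15 of all 373 that rose and 3 that fell (median 0.00). The feeder sums went from 1415, 1505 and 1486 to 1791, 1849 and 1939, with mmu-miR-21 giving the highest signal, and the primed epiblast sums from 10032, 9876 and 10342 to 6438, 6900.2 and 6583, with mmu-miR-302a giving the highest. No member of the other lists was called in that step.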

How the data were processed

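Each of the 39 one-colour Agilent mouse miRNA arrays, 3 in each of 13 groups, was placed in its group by its label. Per the file headers, the deposited scanner files hold intensity values made with Feature Extraction 10.7.3.1, while the submitters' processing notes and the methods name 9.5.3.1. That software subtracted the local background, combined spots and probes into a total signal per miRNA, and wrote 0.1 where a miRNA was not detected. Other values in the deposited files, the detection and saturation flags, were used for filters and for counting arrays, and no spot of either strand was saturated. The authors also deposited a series matrix of log2, quantile normalized values, with a floor that is seen in the values and not stated. It was used among the alternatives alone: 18 of its 39 columns rank like the scanner values of another array, with Activin A and Activin A plus Wnt3a in each other's place.

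Total signals were quantile normalized over all arrays, values under 2 were raised to 2, and log2 was taken. This floor touched 225 of 10796 detected values. A miRNA was tested where at least 2 arrays of 1 group detected it. Group means were fitted with limma 3.58.1 (lmFit and eBayes; statmod 1.5.0 for random blocks) in R 4.3.3, on the 12 arrays of a day for comparisons within a day, on all 39 for time steps, and on 24 for strand differences, with Benjamini-Hochberg adjustment over every miRNA or hairpin tested. A call needed an adjusted p below 0.05 and more than 2-fold, and for strand differences the adjusted p alone. The fitting functions were tested on simulated sets of 12 arrays with the same spread in every group. The fits of 39 and of 24 arrays, with the unequal spreads of these groups, were not simulated. Tables and plots were made in Python 3.11.15 with pandas 2.3.3 and matplotlib 3.10.9. Scaled signals, used for single probes and list sums, were divided by a factor per array, its 75th percentile among the 143 miRNAs that every array detected, with the factors centred on their geometric mean.

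The members and the lists of markers were chosen with earlier results of these data known. The miRNAs named besides the members were the 5 nearest to each strand by correlation over 13 groups and over 8 groups, the 2 of each list with the highest mean level, and up to 3 hairpins whose strand difference moved most in a contrast. mmu-miR-219 and the undetected list members were named after their values were seen.

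Alternatives were 3 other normalizations, a background correction by normexp (offset 50), a floor of 8, the series matrix, other detection filters, a linear model without moderation, other sets of arrays in the fit, the slide as a term, a replicate block, and leaving out each array. Leaving out Wnt3a day 5 replicate 1 where it was not in the compared groups, and other normalizations of the differences from control, were chosen after seeing the data. Matrix columns were compared with the scanner values by rank to count those out of place, but a run with these columns put in each other's place, which had been planned, was not made, since it would have assigned columns by their values.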

Additional observations from a re-analysis of the deposited data

Results flagged for a closer look

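The difference that Wnt3a made to miR-335-3p in Activin A cells had opposite signs on the later days. At day 3 it was 0.76, with every array of Activin A plus Wnt3a above every array of Activin A alone, and at day 5 it was -0.27, with every array below. The difference between the days was not tested. At day 3 the 2 groups shared no slide and no scan session. At day 5 the arrays with both factors were on slide 5 and Activin A replicates 1 and 2 on slide 4. Activin A replicate 3, on slide 5, lay at 7.80, above the arrays with both factors (7.49 to 7.67). Treatment and slide cannot be told apart in the change of sign. Both signs turn in the series matrix, where the arrays of these 2 treatments are in each other's place, at -0.77 and 0.28.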

How the results depend on the processing

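The fall of miR-335-5p with Activin A plus Wnt3a ("both" below) against Wnt3a at day 3 and its rise with Wnt3a from day 1 to 3 kept direction and call in every alternative. Values that crossed the limits of a call, turned or moved follow; the cause was not tested unless stated. Day 1 signals were near background. With scaling to the 75th percentile over miRNAs detected everywhere, the 3p values were 1.43 (Wnt3a, day 1 to 3), -0.0258 (Wnt3a, day 3 to 5) and 1.70 (Activin A, day 1 to 3), and the 5p values with both factors 1.19 (day 1 to 3) and 1.402 (day 3 to 5). With the percentile over all miRNAs, 3p gave 0.0408 (both minus Wnt3a, day 5), -0.21 (Wnt3a, day 3 to 5) and 1.68 (Activin A, day 3 to 5), and 5p 1.41 (both, day 3 to 5). With quantile normalization of log2 signals, 3p with Activin A gave 1.83 (day 1 to 3) and 1.70 (day 3 to 5), 5p with both factors 1.34 (day 3 to 5) and the strand difference -0.0106 (Wnt3a, day 3 to 5). With normexp, 5p gave -0.88 (both minus Wnt3a, day 5), both strands with Activin A from day 3 to 5 gave 0.75 (5p) and 0.77 (3p), all under 2-fold, and the strand difference from day 3 to 5 gave -0.0147 (Wnt3a) and -0.0231 (Activin A).

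In the series matrix, with Activin A and both exchanged, both minus Activin A gave -0.39 (5p) and -0.77 (3p) at day 3, 0.0309 and 0.28 at day 5, and strand shifts of 0.38 and -0.25. It gave 3p values of -1.70 (both minus Wnt3a, day 3), 1.31 (Wnt3a, day 1 to 3), 1.44 and 1.71 (both, day 1 to 3 and day 3 to 5) and 0.65 (Activin A, day 3 to 5); its 5p values were 1.34 (Activin A, day 3 to 5) and 1.75 (both, day 3 to 5), and strand shifts from day 3 to 5 of -0.0125 (Wnt3a), 0.68 (Activin A) and 0.0466 (both). A planned run with columns reassigned was not made.

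A floor of 8 kept the values and lowered limma's adjusted p for 3p from day 1 to 3 with Wnt3a (1.28, 0.0122) and Activin A (1.06, 0.0389), for 5p with both factors from day 3 to 5 (1.34, 0.00112) and for its change of the Activin A difference between days, below "the change" (1.28, 0.0209). Arrays of the compared days alone gave the 5p values 1.34 (0.000162) and 1.28 (0.00255). With no filter 3p (Activin A, day 3 to 5) had 1.68 (0.0826), more miRNAs being tested. One fit of 39 arrays gave 5p -1.23 (both minus Wnt3a, day 5; 0.0507). It gave strand shifts of -1.61 (day 3; 0.178), -0.95 (day 5; 0.363) and 0.68 (both, day 3 to 5; 0.753), as it takes in ESC and day 1 arrays with an undetected strand. With the slide fixed, 3p (Activin A, day 1 to 3) was -0.50 and the strand shift (both, day 3 to 5) 0.60 (0.689).

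Leaving out each array gave, for 3p, -0.93 to 0.11 (both minus Wnt3a, day 5), 1.24 to 1.34 (Wnt3a, day 1 to 3), -0.35 to 0.69 (Wnt3a, day 3 to 5), 0.54 to 1.85 (Activin A, day 1 to 3), 1.61 to 1.78 (Activin A, day 3 to 5) and -0.0296 to 1.01 (the change). For 5p it gave -0.0605 to 0.000829 (both minus Activin A, day 5), -0.17 to 0.45 (Wnt3a, day 3 to 5) and 1.62 to 1.80 (Activin A, day 3 to 5). For strand shifts it gave -0.60 to -0.24 (both minus Activin A, day 3), and from day 3 to 5 -0.23 to 0.19 (Wnt3a), -0.16 to 0.20 (Activin A) and 0.63 to 0.72 (both).

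Deviations of same-numbered arrays correlated at 0.151 to 0.207 (both minus Activin A, day 3), 0.0477 to 0.261 (both minus Wnt3a, day 5) and -0.48 to 0.25 (others). A replicate block gave -2.51 for 5p in both minus Wnt3a at day 3 (limma adjusted p = 3.47e-07) and changed no call of either strand; hairpins called went from 3 to 0 (both minus Activin A, day 3) and from 1 to 0 (Activin A, day 3 to 5).

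With normexp the counts of calls went from 59 to 6 and 93 to 23 (both minus Wnt3a, days 3 and 5), 13 to 0 and 10 to 0 (both minus Activin A), 164 to 31 and 82 to 11 (Wnt3a, day 1 to 3 and 3 to 5), 158 to 28 and 25 to 1 (Activin A), 153 to 26 and 18 to 0 (both), and 55 to 6 (the change). Both minus Activin A went from 13 to 21 (percentile over miRNAs detected everywhere), 5 (floor of 8) and 8 (no filter) at day 3, and from 10 to 4 (floor of 8) at day 5. From day 3 to 5, Activin A went from 25 to 40 (same percentile) and 14 (floor of 8), and both from 18 to 29 (series matrix) and 8 (slide fixed). Hairpins called went from 6 to 12 (normexp), 24 (no filter), 12 (detected on all 3 arrays of a group) and 2 (39 arrays) for both minus Wnt3a at day 3, and from 9 to 22, 52 and 18 by the first 3 of these at day 5. For both minus Activin A at day 3 they went from 3 to 5 (either percentile), 1 (log2 quantile, matrix or floor of 8), 0 (normexp), 9 (no filter) and 6 (all 3 arrays), and at day 5 from 0 to 1 (log2 quantile) and 4 (no filter). From day 3 to 5 they went from 9 to 19 (normexp), 47 (no filter), 21 (all 3 arrays) and 18 (slide random) with Wnt3a; with Activin A from 1 to 7 (log2 quantile or matrix), 2 (normexp or floor of 8), 11 (no filter), 4 (all 3 arrays), 6 (slide random) and 0 (no moderation), and with both from 8 to 1 (either percentile), 5 (normexp), 2 (matrix), 15 (no filter), 4 (39 arrays) and 0 (slide fixed).

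With the percentile over miRNAs detected everywhere, higher and lower calls went from 51 and 42 to 34 and 80 (both minus Wnt3a, day 5), 6 and 7 to 19 and 2, 7 and 3 to 5 and 5 (both minus Activin A, days 3 and 5), 36 and 46 to 79 and 20 (Wnt3a, day 3 to 5), 15 and 10 to 39 and 1 (Activin A, day 3 to 5) and 31 and 24 to 16 and 57 (the change). Over all miRNAs these became 15 and 3 (both minus Activin A, day 3), 58 and 35, 30 and 1, and 23 and 35. With log2 quantile they became 11 and 7 (both minus Activin A, day 3), and went from 110 and 54 to 76 and 68, 102 and 56 to 73 and 65, and 102 and 51 to 67 and 66 (day 1 to 3, Wnt3a, Activin A and both), and 15 and 3 to 13 and 8 (both, day 3 to 5). The former percentile moved the median of all miRNAs to -0.38 (both minus Wnt3a, day 5), 0.31 (Wnt3a, day 3 to 5), 0.24 (Activin A, day 3 to 5) and -0.30 (the change).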
